A study of Mus musculus with 2 samples.

Results

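The major urinary proteins (Mups) examined here were Mup2, Mup3, Mup4, Mup5, Mup19 and Mup20. Their probes were found by matching the transcript accession of each array probe to a gene symbol, which gave 8 probes for these 6 genes out of 39429 probes and 20886 genes on the array. Probes for 4 further Mup genes (Mup6, Mup17, Mup18 and Mup21, 1 probe each) are given beside them for comparison and were not counted among the 6. The 6 genes were selected on their measured diet ratios on these same arrays, so the ratios below are a description and carry no test.

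The samples came from wild-type male C57BL/6J mice kept for 4 weeks on a high-fat diet or on a normal diet. RNA from 10 livers and 10 adipose tissues was combined by diet, and the labels do not say how many animals stood behind each pool or which fat depot was taken. The 4 groups were therefore high-fat liver, normal-diet liver, high-fat adipose tissue and normal-diet adipose tissue, with a single pool for each. Each tissue was hybridised to 1 two-colour Agilent array, with the high-fat pool in Cy5 (red) and the normal-diet pool in Cy3 (green). There was no replicate and no dye swap, so a dye effect cannot be told apart from a diet effect, and the slide cannot be told apart from the tissue.

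Major urinary proteins are small secreted lipocalins, barrel-shaped proteins that carry hydrophobic ligands. In mice the liver makes most of them, the kidney filters them into urine, and there they bind and slowly release volatile pheromones. Their liver expression is higher in males and depends on the pulsed male pattern of growth hormone acting through STAT5b, together with glucocorticoid, thyroid hormone and androgen. The mouse genes form a cluster on chromosome 4 in which a central group, including Mup2, Mup17, Mup18 and Mup19, is nearly identical in sequence. Mup3, Mup4, Mup5, Mup6, Mup20 and Mup21 lie at the edges of the cluster and are more divergent. Mup20 is darcin, the male pheromone protein of mouse urine, while Mup4 is also made in nasal tissue and Mup5 in salivary glands. Because the members are so alike, a probe for 1 gene may bind the transcripts of others, and each value below belongs to a probe rather than with certainty to a single gene.

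The promoters of the members show this kinship, and are printed because the probes of these genes differed in the same direction on each array. RefSeq's promoter table (build GRCm38.p6, from 250 bases before to 50 bases after the annotated start) held 4 of the 6 members, and Mup5 and Mup20 are named only. All 4 lie on the minus strand, at chr4:59960618-59960917 for Mup4, chr4:60139807-60140106 for Mup2, chr4:61782175-61782474 for Mup19 and chr4:62087268-62087567 for Mup3. Capitals mark a run of 20 bases common to the 4 promoters and the letters TATATAA.
Mup4: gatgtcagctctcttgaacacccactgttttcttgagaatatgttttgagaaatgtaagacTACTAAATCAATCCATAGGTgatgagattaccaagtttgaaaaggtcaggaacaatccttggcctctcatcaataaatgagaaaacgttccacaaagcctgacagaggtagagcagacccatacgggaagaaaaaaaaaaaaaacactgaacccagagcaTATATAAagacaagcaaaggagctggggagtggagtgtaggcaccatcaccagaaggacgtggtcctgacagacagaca
Mup2: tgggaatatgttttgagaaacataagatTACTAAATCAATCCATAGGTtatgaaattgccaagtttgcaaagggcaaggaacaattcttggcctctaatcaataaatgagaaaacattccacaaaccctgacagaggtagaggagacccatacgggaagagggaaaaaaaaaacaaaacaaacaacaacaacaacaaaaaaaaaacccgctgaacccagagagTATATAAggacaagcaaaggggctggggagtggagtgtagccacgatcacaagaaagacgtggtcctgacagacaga
Mup19: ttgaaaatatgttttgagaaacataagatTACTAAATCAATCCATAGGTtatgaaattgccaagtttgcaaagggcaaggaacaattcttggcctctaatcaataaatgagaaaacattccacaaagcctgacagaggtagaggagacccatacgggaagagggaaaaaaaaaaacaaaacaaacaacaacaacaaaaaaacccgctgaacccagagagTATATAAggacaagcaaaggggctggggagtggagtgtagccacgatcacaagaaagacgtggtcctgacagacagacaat
Mup3: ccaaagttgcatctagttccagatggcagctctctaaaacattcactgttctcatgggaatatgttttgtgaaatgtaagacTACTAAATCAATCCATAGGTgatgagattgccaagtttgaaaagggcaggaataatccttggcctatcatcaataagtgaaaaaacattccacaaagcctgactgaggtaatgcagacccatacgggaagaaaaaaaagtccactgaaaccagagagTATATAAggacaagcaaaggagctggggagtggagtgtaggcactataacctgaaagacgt
The aligned promoters of Mup2 and Mup19 were 96.7% identical and those of Mup4 and Mup3 were 88.3% identical, whereas Mup2 and Mup3, the least alike pair, shared 76.8%. The letters TATATAA, searched on both strands, occurred in 4 of 4 member promoters and in 3.24% of the 32851 promoters in the table. They began 29 bases before the annotated start in Mup4, 27 in Mup2, 31 in Mup19 and 11 in Mup3. The run TACTAAATCAATCCATAGGT was found in 12 promoters (0.0365%), each of them of a Mup gene, out of 14 Mup genes in the table. ATCAAT, the core of a site known for HNF6-type factors, was present at 2 places in each of the 4 promoters, against 7.54% of all promoters, and its first place overlapped the shared run. The STAT5 core TTCNNNGAA was in 0 of 4 of these windows and in 8.30% of all promoters. These matches describe letters within 300 bases, not bound sites.

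Probes well above background in both channels numbered 23041 of 39418 (58.5%) on the liver array and 23189 of 39427 (58.8%) on the adipose array, which left 13642 and 14315 measured genes. A ratio is given as the log2 of high-fat over normal-diet intensity after loess normalization, with the error that the scanner software assigned to it, and the median such error over genes was 0.21 on both arrays. The tissue labels were checked against markers: of the hepatocyte list, 32 of 32 measured genes gave more signal with liver RNA in the high-fat pools and 30 of 32 in the normal-diet pools, while 13 of 14 adipocyte markers were brighter on the adipose array in both diets. At least 2-fold was used as the size to count. In liver 67 genes were higher and 79 lower by that measure (45.9% of those counted were higher, and 94.1% after median centring in place of loess). In adipose tissue 605 were higher and 735 lower (45.2% and 87.2%).

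In liver the Mup probes were higher in the high-fat pool, by a modest factor and from a very high level. All 6 members had a ratio above 0, though Mup3 fell below 0 in 2 of the other settings run, and 2 of them, Mup2 and Mup19, were at least 2-fold higher, against 0.491% of all measured genes (0.579% were at least 2-fold lower). The median ratio of the 6 was 0.91, a 1.87-fold difference, beside a median of 0.01 over all 13642 genes. Since the genes were chosen with these ratios known, nothing is read from that count.

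Mup2, a central-group gene, had a normalized log2 level of 17.54 in the high-fat pool and 16.28 in the normal-diet pool. Its ratio of 1.26 ± 0.22 (scanner error) was 2.39-fold, the highest of the members. Mup19, also of the central group, had 18.14 in the high-fat pool and 17.02 in the normal-diet pool, which is a ratio of 1.12 ± 0.21 or 2.17-fold. The raw Mup19 signal in the high-fat liver pool, 551052 intensity units against 101168 in the normal-diet pool, was the brightest of the whole liver array, and no spot was marked saturated.

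Darcin, Mup20, was read by 2 probes. Its first probe (A_55_P2051486) had levels of 17.16 in the high-fat pool and 16.14 in the normal-diet pool, and its second (A_55_P2063654) had 17.81 and 16.86 in the same order. The probes gave closely similar liver ratios, 1.02 ± 0.21 and 0.95 ± 0.21, whose mean of 0.98 lay just under 2-fold. Mup5 had 17.38 in the high-fat pool and 16.55 in the normal-diet pool, a ratio of 0.83 ± 0.21. Mup4 had a bright probe (A_55_P2010093) at 17.12 in the high-fat pool and 16.40 in the normal-diet pool, with a ratio of 0.72 ± 0.21. A dimmer Mup4 probe (A_55_P2007816) read 10.54 in the high-fat pool and 10.18 in the normal-diet pool, with a ratio of 0.36 ± 0.21. This dim probe is the only member probe that was not near the top of the liver array's brightness range.

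Mup3 stood lowest among the members. Its level was 16.98 in the high-fat pool and 16.69 in the normal-diet pool, a ratio of 0.29 ± 0.20 that turned to -0.09 with the scanner software's own log ratio and to -0.04 once a running median by brightness was subtracted. Its ratio lay 0.96 below that of Mup2 and 0.82 below that of Mup19, gaps of more than 2 combined scanner errors. Among the Mup genes outside the 6, the liver ratio was 0.75 for Mup17, 0.72 for Mup18, 0.50 for Mup21 and 0.17 for Mup6. All 12 Mup probes thus had liver ratios above 0 after loess, with the exception just given for Mup3 under other settings.

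**Figure D1:**
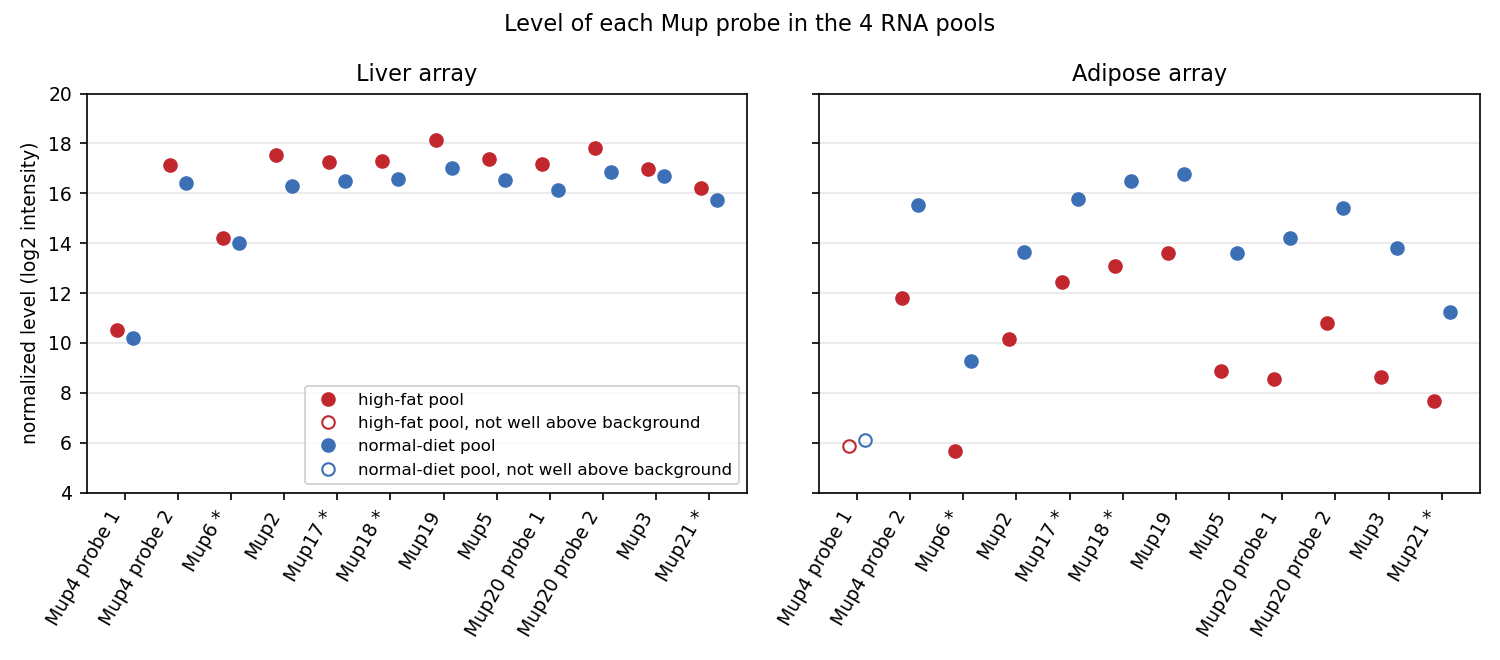
Normalized log2 intensity of each Mup probe on the liver array (left) and the adipose array (right), with the high-fat pool in red to the left of the normal-diet pool in blue; open circles were not well above background, and an asterisk marks Mup genes outside the 6. On the liver array the high-fat point is the upper one for all 12 probes, for Mup3 by a margin that turns with the scanner software's log ratio, while on the adipose array it is the lower one for the 11 probes above background.

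The liver ratios have to be read beside the brightness of the probes. Brightness is the log2 intensity averaged over the channels. Among the non-Mup probes of the liver array, the median ratio was -0.07 for the 745 between 14 and 15 on that scale and 0.04 for the 496 between 15 and 16. It was 0.32 for the 219 between 16 and 17 (quartiles 0.12 and 0.58) and 0.65 for the 38 between 17 and 18 (quartiles 0.50 and 0.80). Of the 12 Mup probes, 7 fell in the 16 to 17 range and 2 in the 17 to 18 range. With the running median of ratios by brightness subtracted, 0.92 remained for Mup2 and 0.71 for Mup19. For Mup20 0.71 and 0.55 remained, for Mup5 0.48, for Mup4 0.39 and 0.37, and for Mup3 -0.04. By this measure none of the 6 was at least 2-fold higher, and their median was 0.55. The running median subtracted from the bright member probes lay between 0.31 and 0.41. It was below the non-Mup medians at like brightness, 0.47 between 16.5 and 17 and 0.65 between 17 and 18. The ratios that remained for the bright probes, and the median of 0.55, may therefore be too high. The dim Mup4 probe lay at a mean brightness of 10.36, where the running median was -0.01. Its ratio was 0.36 before the subtraction and 0.37 after, both under 2 scanner errors.

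**Figure D2:**
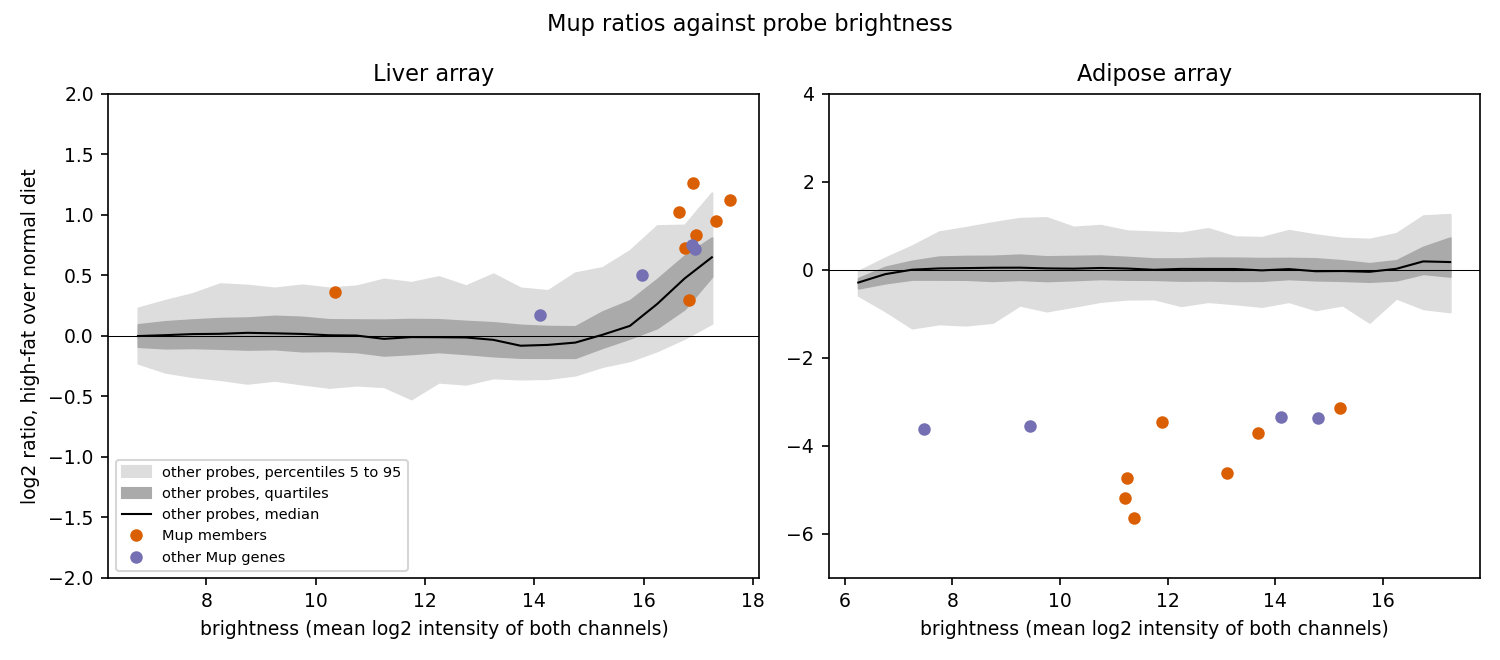
Log2 ratio of high-fat over normal diet against mean log2 brightness for the Mup members (orange) and other Mup genes (purple), over the median, quartiles and percentiles 5 to 95 of all other probes in grey, on the liver array (left) and the adipose array (right). On the liver array the grey median is 0.32 at a brightness of 16 to 17, where 7 of the 12 Mup probes sit, and 0.65 at 17 to 18, where 2 sit, whereas on the adipose array every measured Mup probe lies below -3.

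In adipose tissue the Mup probes were far lower in the high-fat pool. All 6 members were at least 2-fold lower, against 5.13% of all measured genes (4.23% were at least 2-fold higher). Their median ratio was -4.22, an 18.6-fold lower intensity, beside a median of -0.01 over 14315 genes. The count held under each of the alternative settings run. In a bulk sample fewer cells of a type and less RNA per cell cannot be told apart, and this holds for every adipose value that follows.

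Mup3 had 8.62 in the high-fat pool and 13.81 in the normal-diet pool, a ratio of -5.19 ± 0.56, or 36.6-fold lower. Its raw signals were 904 intensity units in the high-fat pool and 6372 in the normal-diet pool, both well above background. Only 3 of the 14315 measured genes had a lower ratio than Mup3, and 4 had a lower one than Mup20. The first Mup20 probe had 8.56 in the high-fat pool and 14.19 in the normal-diet pool, a ratio of -5.64 ± 0.60 that made it the lowest of the Mup probes at 49.7-fold. The second Mup20 probe had 10.80 in the high-fat pool and 15.41 in the normal-diet pool, a ratio of -4.61 ± 0.49 or 24.5-fold lower. These probes of darcin differed by 1.02, which is under 2 combined scanner errors, and their mean was -5.13.

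Mup5 had 8.88 in the high-fat pool and 13.60 in the normal-diet pool, a ratio of -4.72 ± 0.51, or 26.4-fold lower. Mup4, by its bright probe, had 11.82 in the high-fat pool and 15.53 in the normal-diet pool, a ratio of -3.71 ± 0.41, or 13.1-fold lower. The dim Mup4 probe was not well above background in either adipose pool (raw signals of 55 and 57 intensity units, high-fat pool first), so no ratio is given for it. Both Mup4 probes carry the same accession, yet only one of them gave a signal in fat.

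The central-group members had the least negative ratios. Mup2 had 10.17 in the high-fat pool and 13.64 in the normal-diet pool, a ratio of -3.47 ± 0.40, or 11.1-fold lower. Mup19 had 13.62 in the high-fat pool and 16.77 in the normal-diet pool, a ratio of -3.15 ± 0.36, or 8.89-fold lower. The raw Mup19 signals stood closer together, 26009 intensity units in the high-fat pool and 38010 in the normal-diet pool. The Cy5 channel of this array was the brighter one (median spot signal 274 for the high-fat pool and 97 for the normal-diet pool). Loess removes this offset together with a part that varies with brightness, whereas median centring removes only a constant. With median centring in place of loess the Mup19 ratio was -1.96 and the median of the 6 was -3.16. The other central genes followed closely, Mup17 at -3.36 ± 0.38 and Mup18 at -3.38 ± 0.38. Of the remaining edge genes, Mup21 had -3.56 ± 0.42 and Mup6 had -3.61 ± 0.59, the last from a level of 5.66 that was the lowest in the high-fat adipose pool among probes above background. With the scanner software's log ratio Mup6 had -5.77 and Mup21 had -3.94.

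**Figure D3:**
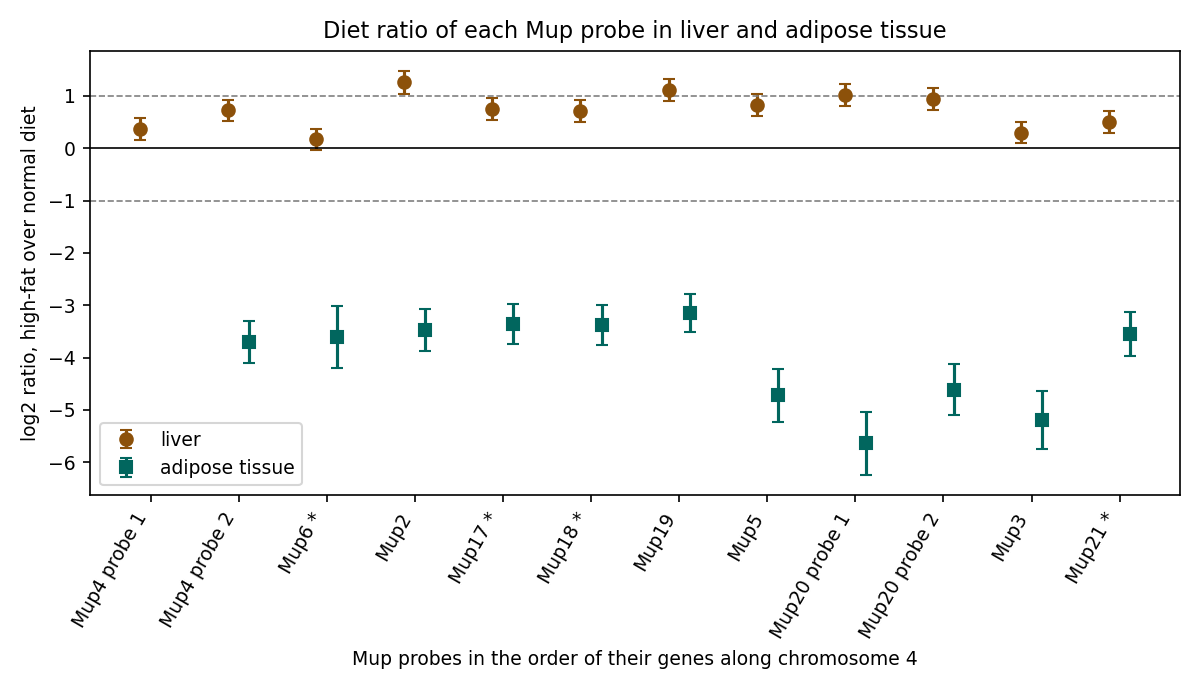
Log2 ratio of high-fat over normal diet for each Mup probe, in the order of the genes along chromosome 4, in liver (brown circles) and adipose tissue (green squares); bars are the scanner software's error, dashed lines mark 2-fold and an asterisk marks Mup genes outside the 6. Liver ratios run from 0.17 to 1.26 and adipose ratios from -5.64 to -3.15, with Mup5, Mup20 and Mup3 at the lower end, where the scanner software's log ratio also puts Mup6 (-5.77).

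The members differed among themselves by more in fat than in liver. Their probes spanned 2.48 log2 units in adipose tissue, from Mup20 to Mup19, and 0.96 in liver, from Mup3 to Mup2. Among the 55 pairs of the 11 Mup probes measured in both tissues, 19 pairs differed by over 2 combined scanner errors in adipose tissue and 12 in liver. In each of those 19 adipose pairs the lower probe belonged to Mup3, Mup5 or Mup20, an order that did not hold for Mup6 with the scanner software's log ratio. By that ratio Mup6, at place 2 of the cluster, had -5.77, below Mup3 (-5.46), Mup5 (-4.93) and the second Mup20 probe (-4.70) but above the first (-5.91). Mup5, Mup20 and Mup3 occupy neighbouring places 19 to 21 among the 22 protein-coding Mup genes of the cluster in the annotation, counted from Mup4. Mup19, at place 18 directly beside Mup5, was 1.57 above it, and Mup21, at place 22 directly beside Mup3, was 1.64 above it. Mup3, with the lowest liver ratio of the 6, also had the lowest adipose ratio, but Mup20 paired a ratio of similar size in fat with one of 0.98 in liver. The scanner error covers the measurement of 1 spot or a few, not the spread between animals, so these gaps have no replicate behind them.

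Hepatocyte markers moved with the Mups in fat. Of 33 listed markers, 32 were measured, which by the filter used means well above background in both adipose pools. The remaining symbol, Tf, had no probe. Of the 32, 23 were at least 2-fold lower in the high-fat pool and 3 at least 2-fold higher (5.13% and 4.23% of all genes). The median was -3.66 with a range of -5.59 to 2.08. Their summed normalized intensity was 415549 in the high-fat pool and 663940 in the normal-diet pool, while that of the 6 Mups was 19058 in the high-fat pool and 227509 in the normal-diet pool. The marker sum was weighted to the brightest markers in fat, Hp, Trf, Rbp4 and Cyp2e1. Their ratios were 0.44, -0.78, -0.09 and -0.93, so the sum does not follow the median of -3.66. Ambp, a lipocalin that the liver secretes joined to bikunin, had -5.59, and the clotting proteins Fgg and Serpinc1 had -5.32 and -4.93. Only 2 of the 32 markers had a lower ratio than Mup3 or Mup20, 6 had a lower one than Mup5, and 15 to 18 had a lower one than Mup4, Mup2 or Mup19. Marker lists of other tissues also differed between these adipose pools: 14 of 14 measured small intestine markers were at least 2-fold higher in the high-fat pool (median 5.01), and 5 of 6 male reproductive tract markers (median -3.09) and 9 of 12 exocrine pancreas markers (median -1.94) were at least 2-fold lower. Of the salivary and lacrimal gland list, which bears on Mup4 and Mup5, 5 of 10 were measured in fat, with 1 at least 2-fold higher, 0 lower and a median of -0.55. The part of any of these in the Mup ratios was not tested.

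In liver, where the same hepatocyte list served as the surrounding tissue, its median ratio was 0.31. There 2 of 32 were at least 2-fold higher and 1 lower (0.491% and 0.579% of all genes). Apoa2, an apolipoprotein of high-density lipoprotein, had 1.14, and Cyp2e1, an ethanol-oxidizing cytochrome, had 1.15. Cyp3a11, a drug-metabolizing cytochrome, had -2.02. The summed Mup intensity was 977096 in the high-fat pool and 517059 in the normal-diet pool.

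The level of each Mup probe on the liver array was then set against the level of the same probe on the adipose array. In the high-fat pools the liver was brighter by a median of 7.59 log2 units over the 6 members, beside 7.89 over the 32 hepatocyte markers and 0.14 over all genes. In the normal-diet pools the median was 2.17 over the members, 4.33 over the hepatocyte markers and 0.06 over all genes. Normal-diet fat thus gave Mup signals nearer to those of liver than high-fat fat did.

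Among the 6 members Mup19 came closest. In the high-fat pools it was 4.52 log2 units brighter on the liver array, but in the normal-diet pools only 0.25, and 1.41 in the unprocessed spot signals. Mup4, by its bright probe, was 5.30 brighter in the high-fat pools and 0.87 in the normal-diet pools. The dim Mup4 probe did not share this small difference. It was above background in normal-diet liver, at 10.18, but not well above background in normal-diet fat, at 6.10. The comparisons of Mup4 here rest on the bright probe alone. Among the non-members, Mup18 was 4.19 brighter in the high-fat pools and 0.10 in the normal-diet pools, and Mup17 was 4.83 and 0.72 brighter in the same order. Of the 32 hepatocyte markers, 4 had a smaller normal-diet difference than Mup19 or Mup4, and 2 had one smaller than Mup18. The 4 were Hp (0.17), Rbp4 (0.17), Trf (-0.49) and Cyp2e1 (-0.36), the brightest listed markers in normal-diet fat, at levels of 16.51 to 17.32. The next smallest differences were those of Apoa2 (1.56), Serpina1a (1.98), Ahsg (2.56) and Alb (2.72).

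The other members kept a wider gap between the tissues. Mup20 was 7.81 brighter on the liver array in the high-fat pools and 1.70 in the normal-diet pools. Mup2 was 7.38 brighter in the high-fat pools and 2.65 in the normal-diet pools, and Mup3 was 8.36 and 2.87 brighter in that order. Mup5 had the widest gap of the 6, at 8.5 in the high-fat pools and 2.95 in the normal-diet pools. Mup21 and Mup6, outside the 6, stood with the hepatocyte markers in the normal-diet pools, at 4.50 and 4.75. With the tissues on separate arrays, a difference of slide or scan cannot be told apart from these differences of tissue.

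**Figure D4:**
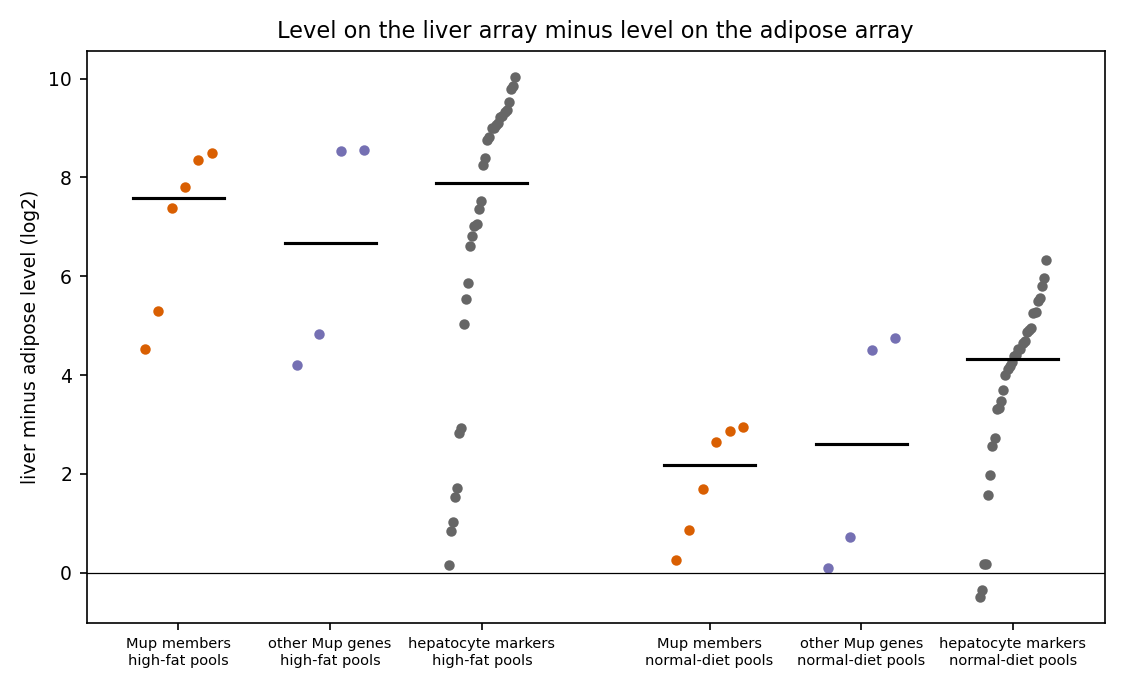
Level on the liver array minus level on the adipose array (log2) of the same probes, for Mup members (orange), other Mup genes (purple) and hepatocyte markers (grey), in the high-fat pools (left) and the normal-diet pools (right); each point is a gene and bars are medians. The member median is 7.59 beside a marker median of 7.89 in the high-fat pools, and 2.17 beside 4.33 in the normal-diet pools.

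Genes with a pattern like that of the Mups were sought by distance from the members' median over 3 log2 differences made from the 4 pools (the liver ratio, the adipose ratio and the normal-diet difference between tissues), among 12657 genes outside the family. The nearest was Serpina1a, which encodes a liver-secreted antitrypsin, at a distance of 0.36 log2 units. It was followed by Ahsg (fetuin) at 0.45, Serpina1e at 0.59, Alb (albumin) at 0.83, Apoa2 at 1.24, Serpina3k at 1.31, Bhmt at 1.54 and Cyp4a14 at 1.68. The members' own distances from their median ran from 0.93 for Mup5 to 2.21 for Mup19, so Serpina1a, Ahsg, Serpina1e and Alb lay nearer to the centre than any member did. Serpina1a had ratios of 0.60 in liver and -4.23 in adipose tissue, and a normal-diet difference between tissues of 1.98. With 4 pools this likeness is a description of these arrays.

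Genes of growth hormone signalling and other regulators tied to Mup transcription were counted next. Of 32 listed, 29 were measured in liver, and 2 were at least 2-fold higher and 1 lower (0.491% and 0.579% of all genes), with a median of 0.03. The STAT5 target Cish, a suppressor of cytokine signalling, had 2.13, and its relative Socs2 had 1.31. Bcl6, a repressor that competes with STAT5 in mouse liver, had -1.98, and Igfbp1, a binding protein for insulin-like growth factors, had -0.98. The growth hormone receptor Ghr had 0.12 and Stat5b had -0.35, while Zhx2 and Cux2 were not measured on either array. In adipose tissue 28 were measured, 4 were at least 2-fold higher and 2 lower (4.23% and 5.13% of all genes), with a median of -0.10. There Hnf4a had 1.90, and Igfbp1 and Igfbp2 had -3.94 and -1.82, while Ghr had 0.08 and Stat5b had -0.33. The small intestine list had a median of 5.01 on this array, and its part in the Hnf4a ratio was not tested.

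Other liver genes with male-biased expression were set beside the Mups. Of 24 such genes 20 were measured in liver, with a median of 0.10. Of these, 3 were at least 2-fold higher and 1 lower (0.491% and 0.579% of all genes). Hsd3b5, a steroid dehydrogenase, had 1.89, Moxd1 had 1.73 and Nudt7, a peroxisomal coenzyme A hydrolase, had 1.32, while Elovl3, a fatty acid elongase, had -1.39. In adipose tissue 12 were measured, with a median of -1.12. Of these, 1 was at least 2-fold higher and 6 lower (4.23% and 5.13% of all genes). Serpina1e had -3.98 there, Cyp2d9 -2.63, Elovl3 -2.51 and Ugt2b38 -2.40.

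Liver genes with female-biased expression were counted in the same way. Of 24 listed, 13 were measured in liver, with a median of -0.07. Of these, 0 were at least 2-fold higher and 3 lower (0.491% and 0.579% of all genes). Cyp3a16 had -2.17, Cyp3a41b -2.04 and Cyp2b10 -1.83, and Acot3 had 0.85. In adipose tissue 10 were measured, with a median of -0.58. Of these, 0 were at least 2-fold higher and 3 lower (4.23% and 5.13% of all genes). Cyp3a16 had -4.26 there and Cyp2a4 -3.00, while Fmo2 had -1.10 and Cyp17a1 had -0.89. Cyp3a16 and Cyp3a41b have close paralogs, so their probes are uncertain in the same way as those of the Mups.

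Relatives of the Mups in the lipocalin family were also counted. Of 21 listed, 14 were measured in liver, with a median of -0.03. Of these, 0 were at least 2-fold higher or lower (0.491% and 0.579% of all genes). Rbp4, the plasma retinol carrier, had 0.76, Lcn2, an iron-siderophore binder, had 0.76, Obp2a, an odorant-binding protein, had -0.64 and Apod had -0.50. In adipose tissue 12 were measured, with a median of -0.17. Of these, 1 was at least 2-fold higher and 4 lower (4.23% and 5.13% of all genes). The liver-secreted Ambp and Apom had -5.59 and -3.28, C8g had -1.10, and the acute phase protein Orm1 had 1.07.

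**Figure D5:**
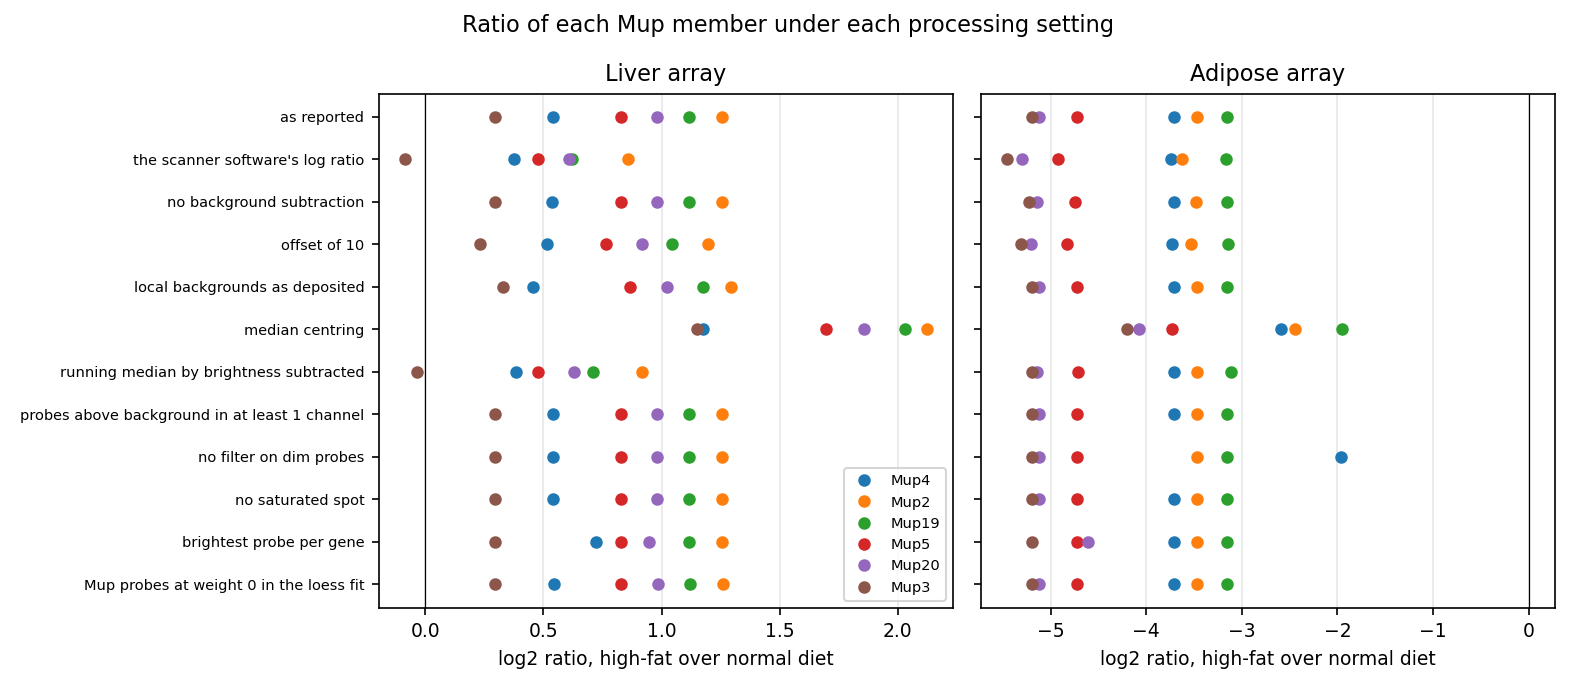
Log2 ratio of high-fat over normal diet of each Mup member under each processing setting, on the liver array (left) and the adipose array (right), with a line at 0. In adipose tissue no member rises above -1.96 under the settings drawn, while in liver Mup3 falls to -0.09 with the scanner software's log ratio and to -0.04 after subtraction of the brightness trend.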

How the data were processed

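The members and the gene lists were chosen with earlier results of these data known. The files deposited by the authors hold, per the file headers, median spot and local background intensities in both channels, a log10 ratio of red over green, and its error, from Agilent Feature Extraction 11.5.1.1 (protocol GE2_1105_Oct12, probes placed on build mm9); version 8.5.1.1 is given in the submitters' processing notes. Intensities were corrected with normexp (offset 50) in limma 3.58.1 under R 4.3.3, after local backgrounds marked as outliers were replaced by the array's median for that channel (liver, 1602 in red and 665 in green; adipose tissue, 1480 in red and 406 in green). Ratios were normalized within each array by loess (span 0.3, control spots at weight 0), and channel levels between arrays by Aquantile. Outlier spots were left out (184 in liver, 213 in adipose tissue). Spots of a probe and then probes of a gene were averaged as log2 values, keeping probes well above background in both channels. The deposited log10 error, turned to log2, is the error printed. The fits were tested on simulated spots with a dye trend linear in brightness. That trend lacked the rise of ratios left after loess among the brightest liver probes, so the test does not bear on them. Accessions were matched to symbols by RefSeq's gene table of GRCm38.p6, which gave 27508 of 39429 probes 1 gene. From each list the 4 measured genes with the largest ratio were named, except 1 that is not reported here, with all Mup probes, the regulators Ghr, Stat5b, Zhx2 and Cux2 (chosen after their values were seen), and the 8 non-Mup genes nearest the members' median. With 1 array per tissue no p-value was computed, and the number of arrays limits the precision.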

Additional observations from a re-analysis of the deposited data

Results flagged for a closer look

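The diet ratio of every member had opposite directions in the tissues, below 0 in adipose tissue and above 0 in liver, and this difference was not tested because each tissue had 1 array. The adipose ratio minus the liver ratio, in log2 units, was -6.11 for Mup20, -5.55 for Mup5, -5.49 for Mup3, -4.73 for Mup2, -4.27 for Mup19 and -4.25 for Mup4. The Mup4 value set a liver mean of 2 probes against its bright probe in fat, and the bright probe alone gave -4.43. For Mup3 the liver ratio was itself below 0 in 2 of the settings run.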

How the results depend on the processing

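No paired analysis was possible because each tissue had 1 array of 1 pool per diet. In adipose tissue all 6 members were at least 2-fold lower under each alternative, and in liver 5 or 6 of 6 were above 0. The scanner software's log ratio gave a liver Mup median of 0.54 with 0 members at least 2-fold higher, 138 liver genes higher and 157 lower, and 1230 adipose genes lower. Subtracting the brightness trend gave a liver Mup median of 0.55 and 0 members higher. That trend lay below the medians of other probes as bright as the bright Mup probes, so this median may be too high. Median centring moved the median of all genes to 0.32 in liver and 0.69 in adipose tissue. The Mup medians were then 1.78 in liver, with 6 members higher, and -3.16 in adipose tissue, or 1.46 and -3.85 relative to all genes, and 445 liver genes were higher, 28 lower and 4208 adipose genes higher. Local backgrounds as deposited left 20 liver genes higher and 35 lower. Asking for 1 channel above background gave 116 liver genes higher, and no filter on dim probes gave 103 and a Mup4 adipose ratio of -1.96. The liver minus adipose Mup median was 8.43 in high-fat and 3.07 in normal-diet pools with equal medians, 7.99 and 2.57 with no scaling, 7.19 in high-fat pools with the brightest probe, and 3.15 in normal-diet pools in raw signals, a setting chosen after seeing the data. The cause of these shifts was not tested. The other 131 such counts and medians stayed within 1.5 times the reported count or 1 scanner error of the reported median.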

Other observations

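Muscle and fat cell markers were read on the same arrays. Of 10 skeletal muscle markers, 9 were measured in liver and 8 were at least 2-fold lower in the high-fat pool (median -1.47), while 7 were measured in adipose tissue and 5 were at least 2-fold lower (median -1.49). Adipocyte markers had a median ratio of 0.26 in adipose tissue, where 16 of 16 were measured with 1 at least 2-fold higher and 1 lower, and 0.07 in liver, where 14 were measured. The small intestine, exocrine pancreas, male reproductive tract and salivary and lacrimal gland lists had liver medians of 0.57, 0.11, -0.11 and 0.00, from 3, 4, 5 and 5 measured genes.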
